A study of Mus musculus with 5 samples.

Results

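The E2F and DP transcription factors were examined in the mammary gland of 5 female FvB/N mice, aged 8 weeks, each on 1 Affymetrix whole-transcript array. Control glands came from 2 mice that carry the MMTV-rtTA transgene alone, and the other 3 glands came from bi-transgenic mice with rtTA plus cyclin D1, written rtTA/CCND1 in the labels. All 5 mice share the rtTA transgene, a transactivator that turns on a responder gene in the presence of doxycycline, here under the mouse mammary tumour virus promoter, which drives expression in mammary epithelial cells. The treatment label gives 7 days of doxycycline for CCND1 "KE mutant" samples, and whether the rtTA controls were treated is not stated. The sample titles name only cyclin D1, so the labels do not settle which form of cyclin D1 the glands carried. The 10 members were taken by gene symbol: the activators E2f1, E2f2 and E2f3, the repressors E2f4, E2f5, E2f6, E2f7 and E2f8, and the DP genes Tfdp1 and Tfdp2. All 10 were measured, out of 19938 genes in all, each by the probe set with the highest mean.

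E2F proteins bind the promoters of genes needed for DNA synthesis and cell division. E2F1 to E2F6 do so as dimers with a DP protein, which Tfdp1 and Tfdp2 encode, whereas E2F7 and E2F8 bind without DP. In resting cells the pocket proteins RB1, p107 and p130 hold the E2F factors inactive or turn them into repressors. Cyclin D1 with CDK4 or CDK6 phosphorylates the pocket proteins and releases E2F. Whether the form of cyclin D1 in these glands does so was not measured. E2f1, E2f2, E2f7 and E2f8 are themselves E2F target genes, so their RNA is commonly raised in dividing cells.

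None of the 10 genes passed the genome-wide test, which called 5.38% of all genes higher and 0.687% lower. E2f8 and E2f5 had the largest differences, log2 values of 1.00 and 0.79 (cyclin D1 minus control), with all 3 cyclin D1 arrays above both controls. Tfdp1 and Tfdp2 stood 0.75 and 0.77 higher as deposited, but had the opposite sign once the arrays were brought to one distribution. The activators E2f1, E2f2 and E2f3 and the repressors E2f4, E2f6 and E2f7 had values that overlapped between the groups.

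Values are log2 expression after RMA, and the arrays did not share one spread. The SD across genes was 0.735 and 0.926 on the control arrays and 1.20 to 1.38 on the cyclin D1 arrays, and the difference of a gene followed its level. The median difference was 1.59 over the tenth of genes with the highest mean, which holds Tfdp1 and Tfdp2 but none of the E2F genes, and -0.29 over the tenth with the lowest mean; renormalized, these medians were 0.36 and -0.075. Each difference is therefore also given after a second quantile normalization of the 5 arrays ("renormalized"). No call of presence was available, and the mean of 1027 olfactory receptor genes, 2.52 and 2.38 on the controls and 1.97 to 2.24 on the cyclin D1 arrays, served as a rough floor of signal. E2f1, E2f2, E2f5 and E2f8 lay at or below that floor on 1 of the 2 controls, which leaves their differences inexact. All 9 measured luminal and alveolar markers of mammary epithelium lay above the floor on every array. Control replicate 1 stood apart, with a Pearson r across genes of 0.701 to 0.779 against the other arrays. Among the 3 cyclin D1 arrays r was 0.955 to 0.962. Control 2 had a higher r against cyclin D1 replicates 1, 2 and 3 (0.861, 0.841 and 0.884) than against control 1 (0.779). The 2 controls were thus no close pair, though each had a smaller SD than any cyclin D1 array. Spread and group could therefore not be separated on these arrays.

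The promoters of 4 family members hold the classical E2F motif, and they are shown because E2F genes can be targets of their own family. RefSeq start-site windows of 300 bases, 250 before to 50 after the start, were found for 8 of the 10 genes on GRCm38.p6; E2f4 and E2f5 were not matched. The motif was searched on both strands in its 4 forms TTTCCCGC, TTTGGCGC, TTTCGCGC and TTTGCCGC, and no match overlapped another. It was found in E2f2, E2f3, E2f7 and Tfdp1 and not in E2f1, E2f6, E2f8 or Tfdp2, against 2.60% of the 27025 genes with a window and 2.26% of all windows. Capitals mark the match, which lies on the opposite strand in E2f3, E2f7 and Tfdp1 and so reads as its reverse complement. For these 3 genes the 250 bases before the start are printed, and for E2f2, whose match begins at base 40 after the start of its first window, a stretch of 19 bases around it. The coordinates are chr13:29986064-29986313 (minus strand) for E2f3, chr10:110745189-110745438 (plus) for E2f7, chr8:13338501-13338750 (plus) for Tfdp1 and chr4:136172305-136172323 (plus) for E2f2. The match begins 11 bases before the start in E2f3, 198 in E2f7 and 43 in Tfdp1, counted in the printed window. A second window of E2f2 and of E2f3 held no match. In a second window of Tfdp1 the match begins 96 bases before the start.
E2f3: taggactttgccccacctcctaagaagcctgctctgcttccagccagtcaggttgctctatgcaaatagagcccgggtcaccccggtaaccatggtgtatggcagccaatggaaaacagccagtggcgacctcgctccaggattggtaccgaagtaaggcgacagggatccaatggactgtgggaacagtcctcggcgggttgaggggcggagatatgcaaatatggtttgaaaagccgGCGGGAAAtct
E2f7: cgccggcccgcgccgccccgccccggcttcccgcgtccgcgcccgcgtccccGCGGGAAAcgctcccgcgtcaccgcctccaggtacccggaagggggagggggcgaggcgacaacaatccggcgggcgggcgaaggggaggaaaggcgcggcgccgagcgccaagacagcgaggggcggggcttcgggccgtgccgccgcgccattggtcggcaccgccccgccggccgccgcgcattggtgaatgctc
Tfdp1: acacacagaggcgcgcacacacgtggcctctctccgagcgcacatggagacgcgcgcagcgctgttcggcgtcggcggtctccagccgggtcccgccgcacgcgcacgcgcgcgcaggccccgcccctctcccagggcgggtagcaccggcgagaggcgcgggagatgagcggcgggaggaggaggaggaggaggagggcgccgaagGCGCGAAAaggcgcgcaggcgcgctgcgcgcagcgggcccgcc
E2f2: gcatatagTTTGGCGCtaa
A match describes these letters only, and binding was not measured.

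Among the activators, which drive entry into S phase, the groups overlapped for every gene. E2f1 read 2.33 and 2.52 in controls 1 and 2 and 2.33, 2.33 and 2.27 in cyclin D1 replicates 1, 2 and 3. These values are close to the floor, and 3 of them are identical to the last deposited digit, as happened on 3 or more arrays in 3.68% of all probe sets. The difference of -0.12 (SE 0.13, 95% interval -0.45 to 0.22, limma adjusted p = 0.604) became 0.061 after renormalization (adjusted p = 0.850). A difference in E2f1 was thus not detectable at this signal.

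E2f2 varied more within the control group than between groups. It read 2.92 and 2.05 in the controls and 2.55, 2.28 and 2.85 in the cyclin D1 glands, so the control values enclosed all 3 cyclin D1 values. Its difference was 0.075 (SE 0.31, 95% interval -0.71 to 0.86, limma adjusted p = 0.895) and 0.17 after renormalization.

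E2f3 was the activator that lay above the floor on every array. It read 4.03 and 3.54 in the controls and 3.54, 3.62 and 3.84 in the cyclin D1 glands, with overlapping groups and a difference of -0.12 (SE 0.20, 95% interval -0.62 to 0.39, limma adjusted p = 0.731). Renormalization widened the difference to -0.78 (SE 0.40, adjusted p = 0.362), because control 1 then stood at 5.02 against 3.68 in control 2 and 3.47 to 3.77 in the cyclin D1 glands. The second E2f3 probe set read 3.65 and 3.43 in the controls and 3.53, 3.95 and 3.56 in the cyclin D1 glands, a difference of 0.14, and so did not share the sign of the first.

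**Figure D1:**
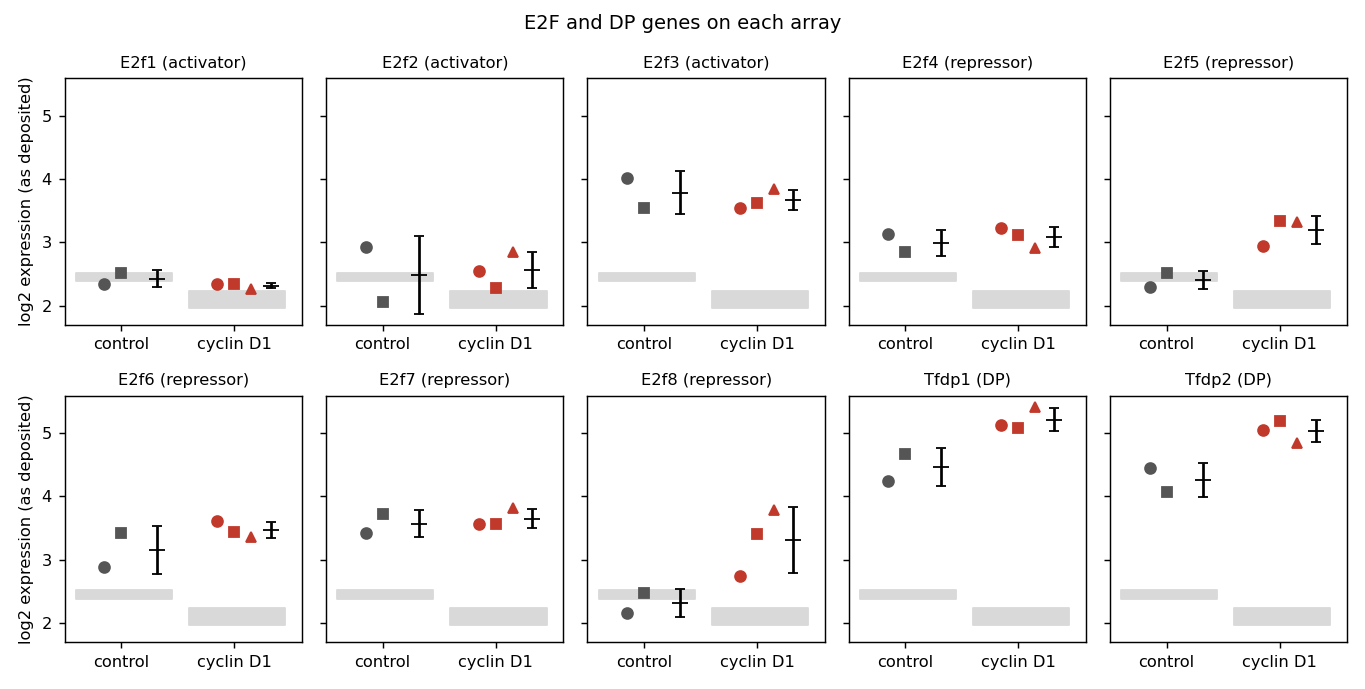
Each panel gives the log2 expression of 1 gene (vertical axis, as deposited) on the 2 control arrays (grey) and the 3 cyclin D1 arrays (red), with circles, squares and triangles for replicates 1, 2 and 3, the mean ± SD in black and a pale band for the range of the olfactory receptor means in each group. The red points lie above both grey points for E2f5, E2f8, Tfdp1 and Tfdp2, and E2f1 lies near the band.

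Among the repressors, E2f4 and E2f5 encode the factors that bind p107 and p130 and hold target genes down in resting cells; the difference between these genes was not tested. E2f4 read 3.14 and 2.85 in the controls and 3.23, 3.12 and 2.91 in the cyclin D1 glands, a difference of 0.093 (SE 0.17, 95% interval -0.34 to 0.52, limma adjusted p = 0.750) that was 0.049 after renormalization. The groups overlapped on both scales.

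E2f5 had the smallest p of the family. It read 2.30 and 2.51 in the controls and 2.94, 3.33 and 3.32 in the cyclin D1 glands, so the lowest cyclin D1 value exceeded the highest control. The group means were 2.40 ± 0.15 (SD, n = 2) and 3.20 ± 0.23 (SD, n = 3). The difference of 0.79 (SE 0.18, 95% interval 0.33 to 1.26), or 1.73-fold, had a limma adjusted p = 0.0695 and did not pass. Renormalized, the controls stood at 2.15 and 2.43 and the cyclin D1 glands at 2.97, 3.28 and 3.26, a difference of 0.88 (SE 0.18, adjusted p = 0.0858). The separation was therefore present on both scales. Without control 1, the array that stood apart, the difference was 0.69, and 0.78 when also renormalized. In 1 of 12 alternative settings, with each array centred on its median, E2f5 passed at a limma adjusted p = 0.0498. That setting called 1261 of 19938 genes higher. In the settings with both controls the adjusted p was 0.0498 to 0.216.

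E2f6 encodes a repressor that lacks the pocket-protein binding region and works through a Polycomb-type complex. It read 2.88 and 3.42 in the controls and 3.61, 3.44 and 3.35 in the cyclin D1 glands. Control 1 alone stood below the rest, and the difference of 0.32 (SE 0.21, 95% interval -0.20 to 0.84, limma adjusted p = 0.372) was 0.20 after renormalization. It was 0.046 without control 1 and 0.59 without control 2 (adjusted p = 0.0911).

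E2f7 and E2f8 encode the atypical repressors, which carry a pair of DNA-binding domains and restrain E2F1 and the S-phase programme. E2f7 read 3.41 and 3.72 in the controls and 3.56, 3.56 and 3.82 in the cyclin D1 glands, a difference of 0.079 (SE 0.17, 95% interval -0.35 to 0.50, limma adjusted p = 0.789). The sign turned to -0.28 after renormalization (adjusted p = 0.419), and the groups overlapped on both scales.

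E2f8 had the largest difference of the 10 genes. It read 2.16 and 2.47 in the controls and 2.74, 3.41 and 3.79 in the cyclin D1 glands, with means of 2.31 ± 0.22 (SD, n = 2) and 3.31 ± 0.53 (SD, n = 3). Cyclin D1 replicate 1 lay nearest the controls and replicate 3 farthest from them. The difference of 1.00 (SE 0.33, 95% interval 0.17 to 1.83), or 2.0-fold, did not pass (limma adjusted p = 0.137). Renormalized values of 1.98 and 2.39 in the controls and 2.79, 3.33 and 3.71 in the cyclin D1 glands kept the groups apart, with a difference of 1.09 (SE 0.31, adjusted p = 0.156). Under all 12 alternative settings E2f8 had a positive difference, from 0.76 to 1.28, but most of them could not turn the sign. Those settings left the difference unchanged, moved all genes alike or dropped 1 array, where groups that lie apart keep their sign. In the settings with both controls the limma adjusted p was 0.103 to 0.332. Without control 1 the difference was 0.84, and 0.95 when also renormalized.

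The DP genes lay apart between the groups as deposited and turned sign after renormalization. Tfdp1, which encodes DP1, the main dimer partner, read 4.25 and 4.68 in the controls and 5.14, 5.08 and 5.42 in the cyclin D1 glands. As deposited the groups lay apart, with a difference of 0.75 (SE 0.20, 95% interval 0.25 to 1.24, limma adjusted p = 0.0894), less than the median of 1.59 in the tenth of genes it belongs to. Renormalized, the controls stood at 5.43 and 5.28 and the cyclin D1 glands at 4.68, 4.50 and 5.11, so the groups lay apart in the opposite direction, with a difference of -0.59 (SE 0.22, adjusted p = 0.240). A second Tfdp1 probe set read 4.27 and 4.26 in the controls and 4.26, 4.70 and 4.50 in the cyclin D1 glands, a difference of 0.22 as deposited in which control 2 and cyclin D1 replicate 1 held the same value. The mean of both probe sets differed by 0.49 (adjusted p = 0.124).

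Tfdp2, which encodes the second DP partner, read 4.45 and 4.08 in the controls and 5.05, 5.20 and 4.85 in the cyclin D1 glands. The deposited difference was 0.77 (SE 0.19, 95% interval 0.30 to 1.24, limma adjusted p = 0.0751). Renormalized, control 1 stood at 5.73, above the cyclin D1 glands at 4.61, 4.59 and 4.65, and control 2 at 4.50, below them, which gave a difference of -0.50 (SE 0.36, adjusted p = 0.497). Without control 1, the deposited differences were 0.54 for Tfdp1 and 0.96 for Tfdp2, and the renormalized ones -0.58 and 0.13. No direction can be given for either DP gene from these arrays.

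**Figure D2:**
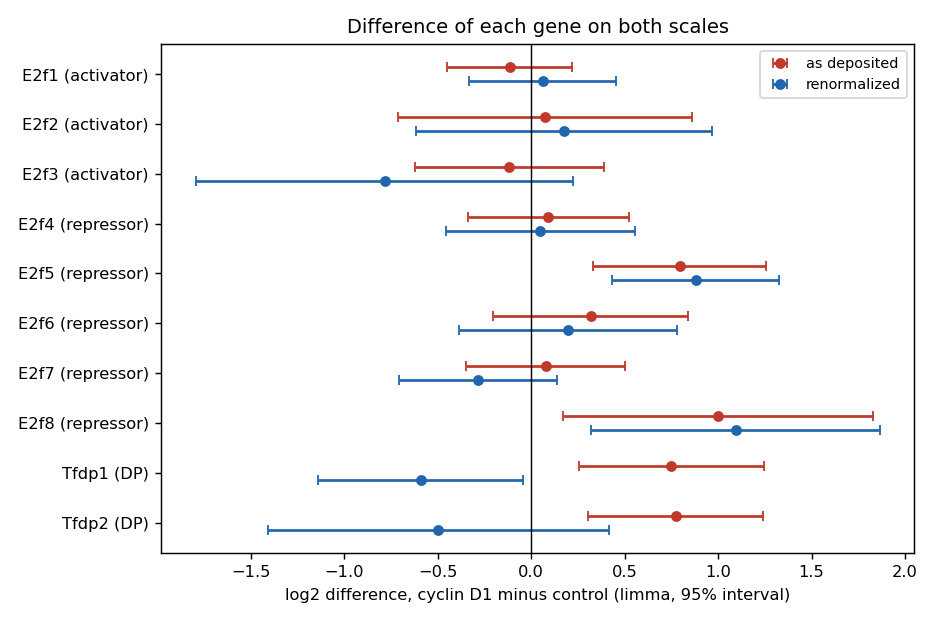
Points give the log2 difference, cyclin D1 minus control, of each gene (rows) and bars its 95% interval from limma, in red as deposited and in blue after renormalization. E2f5 and E2f8 lie to the right of 0 in both colours, whereas Tfdp1 and Tfdp2 change sides, from 0.75 and 0.77 to -0.59 and -0.50.

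Counted over the family, 0 of the 10 genes were called higher and 0 lower by limma, against 5.38% of all genes called higher and 0.687% called lower; after renormalization 0 of 10 were called, against 0.361% of all genes. At an unadjusted p under 0.05 the count was 4 (E2f5, E2f8, Tfdp1 and Tfdp2), where 26.3% of all genes lay under that value, and after renormalization it was 3 (E2f5, E2f8 and Tfdp1, the last with the opposite sign), where the share of all genes was 18.7%. All 3 cyclin D1 values lay above both controls in 4 of 10 genes, against 22.4% of all genes, and in 2 of 10 after renormalization, against 20.1%. They lay below both controls in 0 of 10 as deposited, against 22.6%, and in 1 of 10 (Tfdp1) after renormalization, against 19.5%. The sign differed between the scales in 4 of 10 genes (E2f1, E2f7, Tfdp1 and Tfdp2), against 21.1% of all genes. All 3 cyclin D1 values lay above both controls on both scales in 2 of 10 genes, E2f5 and E2f8, against 13% of all genes. The shares of genes with an unadjusted p under 0.05 or with groups apart thus lie near those of the whole array once it is renormalized. The median difference over the 10 genes was 0.21, and 0.055 after renormalization, beside medians of -0.053 and -0.021 over all genes.

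The activators and the repressors were set against each other as class means on each array, with no test, since the classes were chosen with results of these data known. The mean of E2f1, E2f2 and E2f3 was 3.09 and 2.71 in the controls and 2.81, 2.74 and 2.99 in the cyclin D1 glands, so the cyclin D1 values lay between the controls and the group difference was -0.053 (0.14 without control 1 and -0.25 without control 2). The mean of E2f4 to E2f8 was 2.78 and 2.99 in the controls and 3.22, 3.37 and 3.44 in the cyclin D1 glands, with every cyclin D1 array above both controls and a difference of 0.46. Most of that difference came from E2f5 and E2f8, since E2f4, E2f6 and E2f7 had differences of 0.093, 0.32 and 0.079.

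The activator mean minus the repressor mean was 0.32 and -0.29 in the controls and -0.41, -0.63 and -0.45 in the cyclin D1 glands. Its group difference of -0.51 is close to the SD of 0.43 between the 2 controls, and control 2 lay nearer to the cyclin D1 glands than to control 1. Renormalized, the same quantity was 0.59 and -0.32 in the controls and -0.36, -0.53 and -0.43 in the cyclin D1 glands, a difference of -0.57 in which control 1 again stood alone. Without control 1 the deposited difference was -0.21, and without control 2 it was -0.81.

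**Figure D3:**
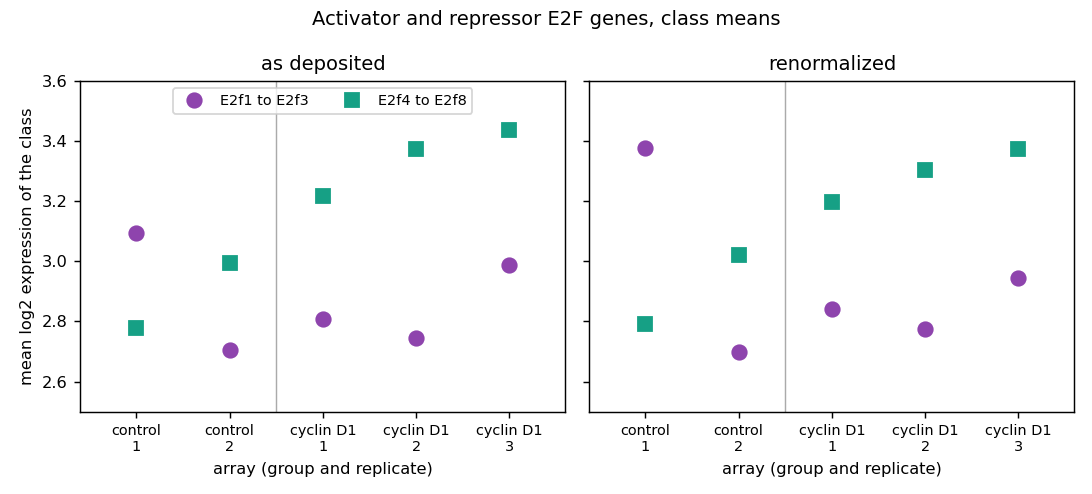
The mean log2 expression (vertical axis) of E2f1 to E2f3 (circles) and of E2f4 to E2f8 (squares) is given for each array, as deposited on the left and renormalized on the right, and each class is to be read across arrays, not against the other. Squares are higher on the 3 cyclin D1 arrays than on both controls, while circles on the cyclin D1 arrays lie between the values of controls 1 and 2.

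Of the genes that act on E2F from above, 1 passed. Ccnd1 itself, the gene of the transgene's product, read 4.04 and 3.49 in the controls and 4.63, 4.92 and 4.0 in the cyclin D1 glands, and did not pass (difference 0.75, SE 0.32, limma adjusted p = 0.218; -0.14 after renormalization). Whether its probe set reads the transgene is not known here. Of 14 measured cyclins, kinases and inhibitors upstream of RB, 0 rose and 1 fell: Cdkn2d, which encodes an inhibitor of CDK4 and CDK6, went from 3.36 and 3.18 to 2.38, 2.45 and 2.40, a difference of -0.86 (SE 0.13, adjusted p = 0.0321; -0.93 and adjusted p = 0.0782 after renormalization). That is 1 of 14 against 0.687% of all genes called lower, and limma called 0 of the list with the replicate number as a block. The filter to genes with a mean above the median dropped Cdkn2d before the test, so it could not be called there. The next smallest p values in that list belonged to Cdkn1b, the gene of the CDK inhibitor p27, and Ccne2, a cyclin E gene, with differences of 0.62 and 0.37 that did not pass (adjusted p = 0.178 and 0.270). The list's median was 0.20, and 0.12 after renormalization.

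The pocket proteins and the complexes they form are the direct partners of E2F. MuvB is the complex that joins p130 and E2F4 in resting cells and MYB factors in dividing ones. The list held 10 measured genes, of pocket proteins, MuvB subunits and the MYB factors Mybl1 and Mybl2. Of these, 1 rose and 0 fell, against 5.38% and 0.687% of all genes, with a median difference of 0.88 (0.72 renormalized). The gene that rose was Rb1, from 4.21 and 5.11 in the controls to 7.77, 7.27 and 7.00, a difference of 2.69 (SE 0.35, limma adjusted p = 0.0238). Renormalized, the Rb1 difference was 1.05 (adjusted p = 0.103), less than the deposited one and not past the threshold.

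Rbl1, which encodes p107, read 2.70 and 2.21 in the controls, the latter below the floor, and 3.15, 4.08 and 3.53 in the cyclin D1 glands, a difference of 1.13 (SE 0.32, limma adjusted p = 0.101; 1.10 renormalized). Rbl2, which encodes p130, differed by 0.62 (adjusted p = 0.208), and by 0.20 after renormalization. The MuvB subunit genes Lin54 and Lin9 and the MYB gene Mybl1 differed by 1.61, 1.38 and 1.12 without passing (adjusted p = 0.0673, 0.0795 and 0.0650), and by 1.45, 1.09 and 1.10 after renormalization. Lin54 and Mybl1 lay below the floor in control 1. All 10 genes of this list had positive differences on both scales, where 44.3% of all genes did as deposited and 47.8% after renormalization.

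Of 14 measured genes of the complex that E2F6 recruits, 2 rose and 0 fell, against 5.38% and 0.687% of all genes, with a median of 0.33 (0.31 renormalized). Mga, which encodes a large DNA-binding subunit, went from 3.12 and 3.55 to 4.92, 5.58 and 4.74, a difference of 1.74 (SE 0.30, limma adjusted p = 0.0381). Cbx3, which encodes a heterochromatin protein, went from 3.47 and 4.88 to 6.38, 6.46 and 6.22, a difference of 2.18 (SE 0.42, adjusted p = 0.0468). Cbx3 has 7 probe sets, and their mean differed by 1.19 (adjusted p = 0.0463). Renormalized, these differences were 1.20 and 1.03 and neither passed (adjusted p = 0.0739 and 0.322). With an intensity trend in limma's eBayes step 0 of the 14 were called. The deacetylase gene Hdac2 and the ubiquitin ligase gene Rnf2 had differences of 2.65 and 1.05 that did not pass (adjusted p = 0.0959 and 0.105). Renormalized, these were 1.34 and 0.44 with overlapping groups (limma adjusted p = 0.372 and 0.514). On that scale all cyclin D1 values lay above both controls in 6 of the 14 genes, beside 20.1% of all genes. They lay below both in 2, Max and Rybp, beside 19.5%.

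Genes at the G1/S transition that E2F factors are known to drive were counted next. Of 42 measured targets other than E2F genes, 4 rose and 0 fell, against 5.38% and 0.687% of all genes, and the median difference was 0.48 (0.49 renormalized). The 4 were Prim1, a primase subunit gene, Ezh2, a histone methyltransferase gene, Pola1, a replicative polymerase gene, and Mcm6, of the replicative helicase. Prim1 went from 2.99 and 3.09 to 5.01, 5.63 and 5.83, a difference of 2.45 (SE 0.27, limma adjusted p = 0.0178), and stood at 1.96 after renormalization (adjusted p = 0.0541). Ezh2, Pola1 and Mcm6 differed by 2.39, 1.68 and 2.28, and by 1.24, 1.22 and 1.86 after renormalization, where 0 of the 42 passed limma's adjusted threshold, against 0.361% of all genes. At an unadjusted p under 0.05 there were 18 of 42 renormalized, against 18.7% of all genes, and 17 as deposited, against 26.3%. Mcm6 lay below the floor in control 1. Over all 4 lists, 8 of 76 genes were called, and 0 without control 1 or without any single one of the 3 cyclin D1 arrays. In 3 of these 4 settings limma called 0 of all 19938 genes too, and in the other, which left out cyclin D1 replicate 3, it called 301. At an unadjusted p under 0.05 without control 1 the lists held 20 of 76 genes, or 26.3%, near the 24.9% of all genes. Without 1 cyclin D1 array they held 26 to 29 of 76, that is 34.2% to 38.2%, where the share of all genes was 17.5% to 23.6%.

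All 3 cyclin D1 values lay above both controls in 21 of the 42 targets, and in 24 after renormalization, beside 22.4% and 20.1% of all genes. They lay below both controls in 2 and 3 of the 42, beside 22.6% and 19.5%. Differences were positive in 34 of the 42 and in 32 after renormalization, beside 44.3% and 47.8% of all genes. Pcna and Ccna2 had the largest, 3.48 and 2.83, without passing (limma adjusted p = 0.0539 and 0.0574), and 2.09 and 2.26 after renormalization. The helicase genes did not share a sign: Mcm6 rose and Mcm4 differed by 1.21 without passing. Mcm5 and Mcm7 had differences of -0.18 and -0.33 that did not pass (limma adjusted p = 0.405 and 0.266). They were the 2 of 42 targets whose deposited cyclin D1 values all lay below both controls. Pcna, Ccna2, Mcm4, Mcm5 and Mcm7 were chosen after their values were seen. Cdc6 and Cdt1, which load that helicase, had differences of -0.23 and -0.17, and Ccne1 one of 0.077, also chosen after their values were seen. They did not pass (limma adjusted p = 0.590, 0.502 and 0.914). Cdt1 held the same value, 2.52, on control 1 and all 3 cyclin D1 arrays, so its difference came from control 2 alone. Of the targets with a RefSeq window, 19 of 37 held the E2F motif described above, against 2.60% of all genes. These genes were listed as known E2F targets, so that share is no result of these arrays. This list shares Rbl1 and Mybl2 with the pocket protein and MuvB list and Ccne1 and Ccne2 with the upstream list.

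**Figure D4:**
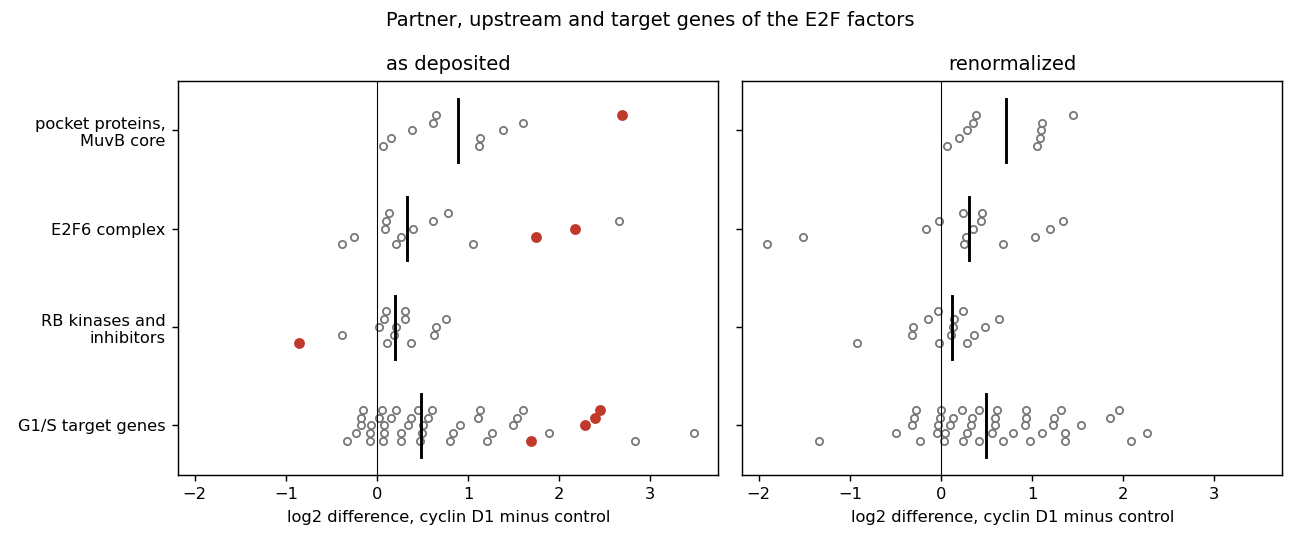
Each point is 1 gene of the 4 lists (rows), placed by its log2 difference, cyclin D1 minus control, as deposited on the left and renormalized on the right; filled red points passed limma's adjusted threshold of 0.05 and black bars are list medians, E2F genes left out. The filled points are Rb1, Mga, Cbx3, Cdkn2d, Ezh2, Prim1, Pola1 and Mcm6 on the left, and there are none on the right.

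Proliferation and epithelial markers stood higher on the same arrays. The mean of 5 measured proliferation markers was 3.29 and 3.25 in the controls and 4.21, 5.04 and 4.92 in cyclin D1 replicates 1, 2 and 3, with 2 of 5 that rose as deposited. The lowest of the 3 was on replicate 1, which also had the lowest E2f8 and E2f5 values of the 3 cyclin D1 arrays. As deposited the highest was on replicate 2, as for E2f5 (3.33), whereas E2f8 was highest on replicate 3 (3.79). Renormalized, the proliferation mean and E2f8 were highest on replicate 3 (4.69 and 3.71), and E2f5 on replicate 2 (3.28). A link between the markers and the E2F genes was not tested. Mki67, the most used of these markers, read 3.63 and 4.10 in the controls and 5.25, 7.02 and 6.56 in the cyclin D1 glands (difference 2.41, limma adjusted p = 0.0664). The mean of 9 luminal and alveolar markers was 5.01 and 5.45 in the controls and 7.33, 7.49 and 6.93 in the cyclin D1 glands, with 4 of 9 that rose as deposited. Adipocyte markers, 6 measured, averaged 5.26 and 5.63 in the controls and 6.18, 4.90 and 5.78, and 9 leukocyte markers averaged 3.06 and 3.38 against 3.52, 3.67 and 3.06, with 0 called in either list. Myoepithelial markers averaged 3.25 and 3.69 against 4.28, 4.40 and 4.05, with 1 of 6 that rose as deposited, and 0 were called among 6 fibroblast, 5 endothelial and 5 skeletal muscle markers. These counts stand against 5.38% of all genes called higher, and after renormalization limma called 0 genes in each of the 8 marker lists. Renormalized, the proliferation mean was 3.59 and 3.35 against 3.96, 4.58 and 4.69, and the luminal and alveolar mean 5.77 and 5.79 against 6.82, 6.90 and 6.65. The renormalized adipocyte mean was 6.21 and 6.05 in the controls and 5.75, 4.49 and 5.56 in the cyclin D1 glands, so every cyclin D1 array lay below both controls, with a median difference of -0.87 and 0 of 6 genes positive, where the deposited means overlapped. The median of the fibroblast markers was 0.38 as deposited and -0.30 renormalized. In whole-gland RNA more cells of a type and more RNA per cell cannot be told apart, and the part of cell composition in the E2F values was not tested.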

How the data were processed

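RNA of 5 mammary glands (2 control, 3 cyclin D1; groups from the sample titles, which the design text calls separate mice) was read on Affymetrix arrays. The deposited values are log2 expression per probe set, made by the authors by RMA in Affymetrix Expression Console 1.1 (submitters' processing notes); the log base was inferred from the range of the values, and which arrays were normalized together is not stated. Of 35556 probe sets, 21789 had 1 gene symbol in the platform annotation, 1621 several and 12146 none. The probe set with the highest mean was kept per symbol, without a filter on dim genes; 2 of the 10 members had a second probe set. Groups were compared over all genes with limma 3.58.1 in R 4.3.3 (lmFit, eBayes, 3 residual and 2.39 prior degrees of freedom), two-sided, with Benjamini-Hochberg adjustment over 19938 genes and a threshold of 0.05; the fit was tested on simulated data. The members and gene lists were chosen with earlier results of these data known, and the target lists were recalled from textbook knowledge. Named genes were all members, Ccnd1, the 3 pocket protein genes and the 4 smallest p values of each list. Some listed genes are not reported here. Alternatives were renormalization, median centring, dropping dim genes, averaging a gene's probe sets, an intensity trend, the replicate number as a block and each array left out. The number of arrays limits the precision.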

Additional observations from a re-analysis of the deposited data

How the results depend on the processing

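E2f5 and E2f8 had positive differences under all 12 alternatives, but most of these could not turn the sign. The intensity trend, the filter on the mean and the mean of probe sets left both differences unchanged, and median centring moved all genes alike. Leaving out 1 array cannot turn the sign where groups lie apart, and the replicate block gave the differences found without cyclin D1 replicate 3. Renormalization, with control 1 (0.88 and 1.09) or without it (0.78 and 0.95), could turn it and did not. Quantile normalization again gave 72 genes called instead of 1209 and 0 instead of 8 among the partner, upstream and target genes, and turned the sign of E2f1 (0.061), E2f7 (-0.28), Tfdp1 (-0.59) and Tfdp2 (-0.50). With control replicate 1 also left out, 1449 genes were called (555 higher, 894 lower, against 1072 and 137 as deposited), 5 of those genes were called (4 targets higher and 1 gene of the E2F6 complex lower), E2f6 (-0.15), E2f7 (-0.45) and Tfdp1 (-0.58) had the opposite sign, and the class differences were 0.16 for activators, 0.29 for repressors and -0.12 for activators minus repressors. Median centring called 1 member, E2f5, where it called 1378 of all 19938 genes, 1261 of them higher. A filter to genes with a mean above the median dropped E2f1 and E2f2. It gave 13 calls among the 56 partner, upstream and target genes it kept, where limma called 1513 of the 9969 genes kept. The mean of probe sets gave 0.011 for E2f3.

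The replicate block called 1147 genes and 0 members, with E2f2 at -0.070 and E2f7 at -0.0053; replicate 3 has no partner, and the numbers are not known to pair mice (correlations of deviations -0.026 and 0.13). With 1 array left out, 0 to 2428 genes, 0 to 11 partner, upstream and target genes and 0 members were called. The ranges of the differences were then -0.36 to 0.51 for E2f2, -0.36 to 0.12 for E2f3, -0.054 to 0.24 for E2f4, 0.046 to 0.59 for E2f6 and -0.076 to 0.23 for E2f7. The activator mean ran from -0.25 to 0.14 and activators minus repressors from -0.81 (without control 2) to -0.21 (without control 1). The cause of these changes was not tested. Signal near the olfactory receptor mean limits E2f1, E2f2, E2f5 and E2f8.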
